A study of Homo sapiens with 4 samples.

Results

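The protein arginine methyltransferase genes are described here with WDR77, the partner subunit of PRMT5, in BE(2)C neuroblastoma cells with and without MYCN knockdown. The members were taken by gene symbol, 7 methyltransferases (PRMT1, PRMT2, PRMT3, CARM1, PRMT5, PRMT6 and PRMT7) and WDR77, and make up 8 of the 26364 genes listed in each sample. RNA-seq was done on 4 samples, 2 of control cells (Ctrl), which received a non-targeting siRNA, and 2 of MYCN knockdown cells (MYCN KD), which received a single siRNA against MYCN. The cells are of 1 MYCN-amplified human line. By the sample labels they were transfected for 6 h with siRNA at 80 nM. The methods text of the study gives another concentration, the final one after medium was added at the end of the 6 h. The cells were collected the next day. The labels do not say that replicates came from separate cultures. The p-values measure only the spread left between these samples after the authors adjusted the counts, and this spread may be technical.

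Protein arginine methyltransferases move methyl groups from S-adenosylmethionine to the side chain of arginine in histones, splicing proteins and other RNA-binding proteins. Type I enzymes (PRMT1, PRMT2, PRMT3, CARM1 and PRMT6) leave asymmetric dimethylarginine, the type II enzyme PRMT5 leaves symmetric dimethylarginine, and the type III enzyme PRMT7 stops at monomethylarginine. PRMT5 works in a complex with WDR77, also called MEP50, and this complex prepares Sm proteins for the assembly of spliceosomal snRNPs. PRMT5 is known as a gene whose product is needed for splicing in MYC-driven cells, and arginine methylation has been tied to the stability of the MYCN protein in neuroblastoma.

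MYCN, like MYC, binds E-boxes as a dimer with MAX, and the promoter windows of the members were therefore searched for 3 E-box spellings on both strands. Windows ran from 250 bases before to 50 bases after a RefSeq start (GRCh38.p14), with 10 windows for the 8 genes, since CARM1 and PRMT7 each have more than 1 listed start. The canonical letters CACGTG were found for 2 of the 8 genes, PRMT3 and WDR77, and are present in 7.26% of all 35116 windows and in 9.74% of the windows of tested genes. The letters CACGCG were found for CARM1 and PRMT7 (11.4% of all windows and 18.0% of those of tested genes), and CATGTG for PRMT2 and PRMT3 (11.1% and 7.11%). None of the 3 spellings was in the windows of PRMT1, PRMT5 and PRMT6, which says only that these letters are not in those 3 windows. The percentages are shares of windows while the member counts are of genes, and a gene with more than 1 start has more than 1 window to match. A match is a description of the letters and not a binding site. The stretches below are shown because they hold the canonical letters, the CACGCG spelling or, for PRMT2, the CATGTG spelling beside the member that moved against the others, with the E-box in capitals and read along the strand of the gene.
PRMT3, chr11:20387489-20387574, plus strand, first E-box base at -187 from the start: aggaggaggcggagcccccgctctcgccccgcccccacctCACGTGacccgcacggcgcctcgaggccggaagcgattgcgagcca
WDR77, chr1:111449229-111449258, minus strand, first E-box base at 10 from the start: tcagaggtgcacCACGTGgggtttgctgcc
CARM1, chr19:10871479-10871552, plus strand, first E-box base at -34 from the upstream start: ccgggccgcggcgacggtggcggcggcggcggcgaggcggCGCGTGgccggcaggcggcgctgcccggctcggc
PRMT7, chr16:68311027-68311056, plus strand, first E-box base at 20 from the upstream start and at -75 from the other: gaggtcccgcccCGCGTGctggccgcggta
PRMT2, chr21:46635424-46635480, plus strand, first E-box base at -239 from the start: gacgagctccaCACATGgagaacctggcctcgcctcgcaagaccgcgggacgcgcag

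Values are RPKM, that is reads scaled by gene length and by library total, which the authors calculated from read counts that RUVSeq had adjusted. The totals behind the samples, recovered from the values, were 29055819 to 34142988 adjusted reads, and the members rested on 411 (PRMT3 in MYCN KD replicate 1) to 22327 reads (PRMT1 in Ctrl replicate 1). MYCN, the targeted gene, was at 1067.9 and 1073.1 RPKM in the Ctrl samples against 720.2 and 718.02 RPKM in the MYCN KD samples, 67.2% of the Ctrl mean. Its log2 fold change was -0.57 (SE, the standard error, 0.0286, limma adjusted p = 0.00361). The 8 markers of adrenergic neuroblastoma reported here (PHOX2A, HAND2, GATA3, GATA2, ISL1, TH, DBH and TBX2) were at 1 RPKM or more in every sample. Their summed RPKM was 1578 to 1736 in Ctrl and 2431 to 2675 in MYCN KD. Of 7 fibroblast and mesenchymal markers, PRRX1 and TWIST2 were listed at 0 in every sample. DCN was at 4.58 and 5.52 RPKM in the Ctrl samples against 9.33 and 7.78 RPKM in the MYCN KD samples. LUM was at 6.81 and 8.19 RPKM against 7.94 and 6.64 RPKM. DCN and COL1A1 rose (log2 fold changes 0.66 and 0.67, limma adjusted p = 0.0269 and 0.00365). The summed RPKM of the 7 was 12.6 to 14.97 in Ctrl and 16.7 to 19.6 in MYCN KD, most of it from DCN and LUM. Of 5 leukocyte markers, ITGAM was listed at 0 in every sample and PTPRC was at or near 0. CD14 was at 1.74 and 1.51 RPKM in the Ctrl samples against 1.52 and 1.75 RPKM in the MYCN KD samples. It made up most of the summed RPKM, which was 1.54 to 1.77 in Ctrl and 1.57 to 1.77 in MYCN KD. Both other marker sums were small beside the adrenergic sum, but the adrenergic and mesenchymal sums moved with the knockdown, and their part in the results below was not tested. In bulk RNA, fewer cells of a kind and less RNA per cell cannot be told apart.

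Of the 8 members, 6 fell in MYCN KD (PRMT1, PRMT3, CARM1, PRMT5, PRMT7 and WDR77), PRMT2 rose, and PRMT6 did not pass the test. The falls left between 56.01% (WDR77) and 75.6% (CARM1) of the Ctrl mean RPKM, and PRMT2 reached 196.4% of it. Differences were tested on log2(RPKM + 1) with limma at an adjusted p under 0.05, over the 11411 genes whose RPKM averaged 1 or more across the samples. All 8 members passed this filter in either condition, and the lowest member value in any sample was 4.98 RPKM (PRMT3 in MYCN KD replicate 2). Among all tested genes 48.1% were called, 22.8% as lower and 25.3% as higher. The median log2 fold change was -0.56 over the 8 members and 0.03 over all tested genes.

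The spread between replicates has a limit that touches each of these values. Replicate 1 deviated from replicate 2 in opposite directions in Ctrl and MYCN KD at 8 of 8 members and at 99.4% of tested genes, so the SDs of the conditions are not independent of each other. An exact two-sided permutation test of a single value cannot go below p = 0.3333 with 2 samples in each condition, so none can pass 0.05 by it.

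**Figure D1:**
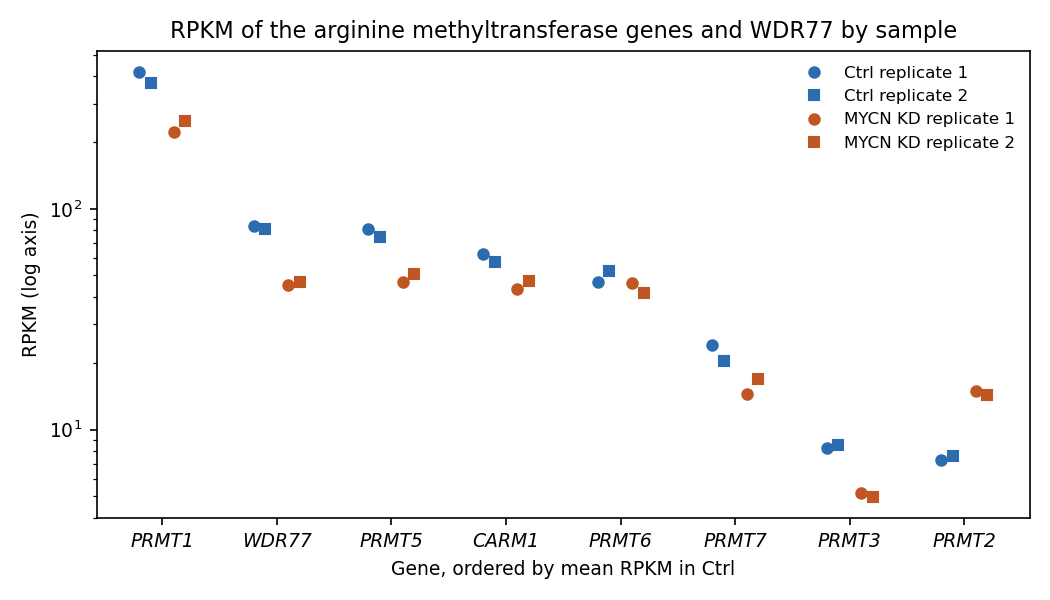
RPKM of each member (log axis) in the 4 samples, with circles for replicate 1 and squares for replicate 2, blue for Ctrl and orange for MYCN KD, and genes ordered by their Ctrl mean. Both MYCN KD values lie below both Ctrl values for 7 members and above them for PRMT2, and PRMT1 lies apart from the rest at 223.3 to 417.05 RPKM.

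PRMT1 makes most of the asymmetric dimethylarginine of mammalian cells and methylates histone H4 and many proteins rich in arginine and glycine. It lies at chr19:50179043-50192286 of GRCh37 on the plus strand, where the canonical transcript has 11 exons. Its level was 417.05 and 372.6 RPKM in the Ctrl samples against 223.3 and 249.5 RPKM in the MYCN KD samples. It was the highest member in every sample, and the MYCN KD values lay well below the Ctrl values. The mean fell from 394.8 ± 31.4 to 236.4 ± 18.5 RPKM (SD, n = 2). The log2 fold change came to -0.74 (SE 0.0907, 95% interval -1.0 to -0.47, limma adjusted p = 0.0106). Its log2 fold change was undercut by 4.12% of all genes in the fit.

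PRMT3, a cytosolic type I enzyme with a zinc finger that binds and methylates the ribosomal protein RPS2, lies at chr11:20409104-20530884 on the plus strand with 16 exons. It was at 8.23 and 8.57 RPKM in the Ctrl samples against 5.18 and 4.98 RPKM in the MYCN KD samples. The groups lay apart with replicates close together, and the log2 fold change was -0.63 (SE 0.0465, limma adjusted p = 0.00497). PRMT3 had the fewest reads of the members in MYCN KD, 411 and 421, against 768 and 749 in Ctrl. These are adjusted reads recovered from RPKM and not scaled to the library totals, so no counting interval is given.

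CARM1, also called PRMT4, is a coactivator of transcription that methylates histone H3, and lies at chr19:10982229-11033751 on the plus strand with 16 exons. Its level was 62.4 and 57.5 RPKM in the Ctrl samples against 43.5 and 47.1 RPKM in the MYCN KD samples. The MYCN KD samples were both lower, and the log2 fold change was -0.40 (SE 0.0690, 95% interval -0.60 to -0.19, limma adjusted p = 0.0212). Exons of CARM1 share 891 bases with exons of YIPF2 on the opposite strand, and YIPF2 was at 28.5 and 25.4 RPKM in the Ctrl samples against 29.3 and 32.7 RPKM in the MYCN KD samples. Whether reads were counted by strand is not given in the sources used here.

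PRMT6, a nuclear enzyme that methylates histone H3 and counters its methylation at lysine 4, has a single canonical exon and lies at chr1:107599296-107610258 on the plus strand. It was at 46.8 and 52.5 RPKM in the Ctrl samples against 46.4 and 41.5 RPKM in the MYCN KD samples. Ctrl replicate 1 and MYCN KD replicate 1 were almost level, and the groups were separated by less than the gap within either. The log2 fold change of -0.17 (SE 0.0915, limma adjusted p = 0.199) did not pass the threshold. Its 95% interval ran from -0.44 to 0.10, so a fall of the size seen for CARM1 is inside it.

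PRMT2, a type I enzyme with an SH3 domain and weak activity of its own, was the member that rose. It lies at chr21:48055507-48085036 on the plus strand with 12 exons. Its level was 7.29 and 7.61 RPKM in the Ctrl samples against 14.9 and 14.3 RPKM in the MYCN KD samples. Both MYCN KD values were far above both Ctrl values, and the log2 fold change was 0.89 (SE 0.0475, 95% interval 0.75 to 1.03, limma adjusted p = 0.00373). In 97.3% of all genes in the fit the log2 fold change was lower.

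PRMT5 and WDR77 form the methylosome, in which WDR77 holds the substrates for the catalytic subunit. PRMT5 lies at chr14:23389734-23398617 on the minus strand with 17 exons, and WDR77 at chr1:111982512-111991878 on the minus strand with 10 exons. PRMT5 was at 81.1 and 74.3 RPKM in the Ctrl samples against 46.6 and 50.8 RPKM in the MYCN KD samples. WDR77 was at 83.5 and 81.03 RPKM in the Ctrl samples against 45.4 and 46.8 RPKM in the MYCN KD samples. Both subunits were thus at a like RPKM in each sample and lower in both MYCN KD samples. The log2 fold change was -0.66 for PRMT5 (SE 0.0725, 95% interval -0.88 to -0.45, limma adjusted p = 0.00865). For WDR77 it was -0.82 (SE 0.0387, 95% interval -0.94 to -0.71, limma adjusted p = 0.00359). PRMT5-AS1, which shares 924 exon bases with PRMT5 on the other strand, was at 0.0461 to 0.134 RPKM. Exons of WDR77 share 673 bases with an unnamed gene on the same strand and 90 bases with ATP5PB on the other, and those of PRMT1 share 171 bases with an unnamed gene on the other strand. Values of these 3 genes were not analysed here, and how their shared bases were counted is not given in the sources used here.

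The ratio of PRMT5 to WDR77, in RPKM, was 0.971 and 0.917 in the Ctrl samples against 1.03 and 1.09 in the MYCN KD samples. PRMT5 was the lower of the pair in both Ctrl samples and the higher in both MYCN KD samples. The mean ratio was 0.944 ± 0.0380 in Ctrl and 1.06 ± 0.0405 in MYCN KD (SD, n = 2), with p = 0.3333 by an exact two-sided permutation test, the smallest that this design allows.

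PRMT7, the type III enzyme, lies at chr16:68344854-68394755 on the plus strand with 19 exons. It was at 24.1 and 20.6 RPKM in the Ctrl samples against 14.5 and 16.9 RPKM in the MYCN KD samples. The groups did not overlap, but for their level the replicates of each were farther apart than for the other members that fell, and the log2 fold change was -0.48 (SE 0.121, 95% interval -0.84 to -0.13, limma adjusted p = 0.0452). The call was lost when no filter on low values was used (limma adjusted p = 0.0706 over 19908 genes). Exons of PRMT7 share 1931 bases with SMPD3 on the opposite strand, which was at 2.45 and 2.40 RPKM in the Ctrl samples against 4.62 and 4.70 RPKM in the MYCN KD samples.

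**Figure D2:**
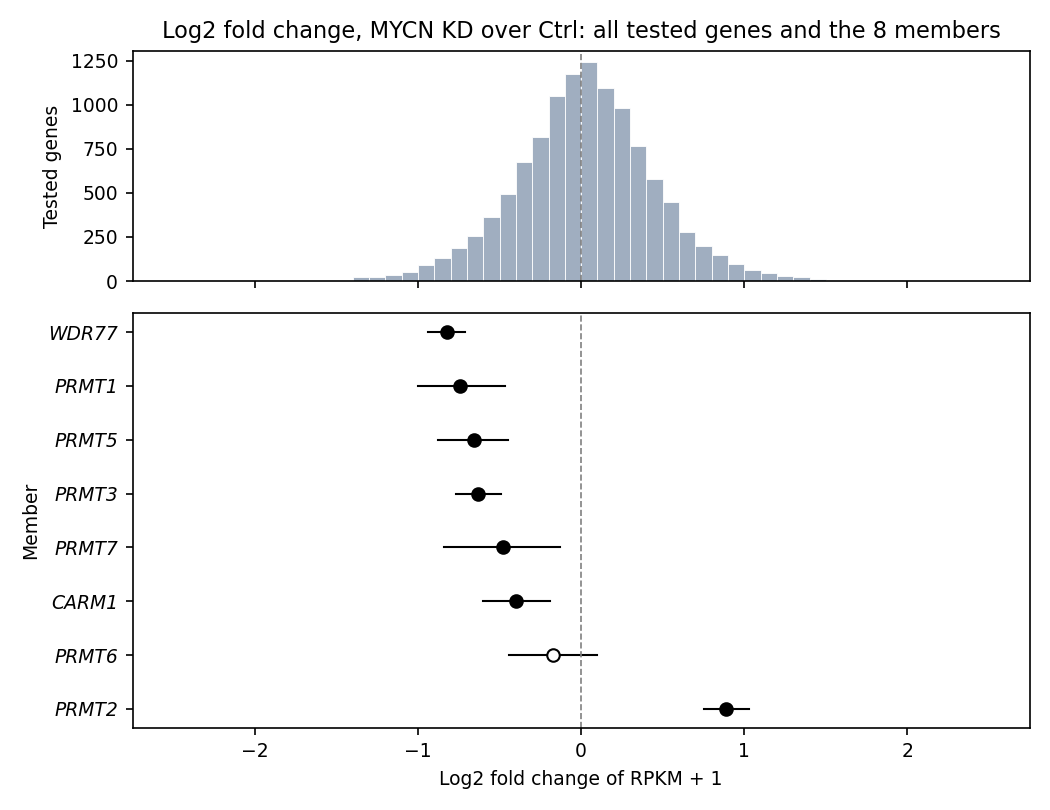
Log2 fold change of RPKM + 1 in MYCN KD over Ctrl. The upper panel counts the 11411 tested genes in bins of the log2 fold change, and the lower panel gives each member with its 95% interval from limma, filled where the adjusted p was under 0.05. PRMT2 (0.89) lies on the right, PRMT6 (-0.17) has an interval that includes 0, and the other 6 members lie between -0.82 and -0.40.

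For 7 of the 8 members each MYCN KD sample lay below each Ctrl sample, as it did for 35.8% of all tested genes. For PRMT2 each lay above, as for 40.4% of tested genes.

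Since RPKM is per length, levels can be set against each other within a sample, as far as the length used for each gene holds. The recovered lengths were 7953 bases for PRMT2 and 2733 bases for PRMT3. In the Ctrl samples PRMT2 had 1980 and 1936 reads against 768 and 749 of PRMT3, so their order in RPKM rests on these lengths. The shares and the ratio of PRMT5 to WDR77 rest on such lengths too. Whether the lengths match the transcripts present was not tested. In Ctrl the order of mean RPKM was PRMT1 (394.8), WDR77 (82.3), PRMT5 (77.7), CARM1 (59.9), PRMT6 (49.7), PRMT7 (22.3), PRMT3 (8.40) and PRMT2 (7.45). The values of WDR77 and PRMT5 overlapped there, and every other pair of neighbours in the order was separate. In MYCN KD the order was PRMT1 (236.4), PRMT5 (48.7), WDR77 (46.1), CARM1 (45.3), PRMT6 (43.9), PRMT7 (15.7), PRMT2 (14.6) and PRMT3 (5.08). The values of PRMT5 and WDR77 overlapped, as did those of WDR77 and CARM1, of CARM1 and PRMT6, and of PRMT7 and PRMT2. PRMT2 thus moved from the lowest place to the one above PRMT3.

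The summed RPKM of the 7 methyltransferases was 646.9 and 593.7 RPKM in the Ctrl samples against 394.4 and 425.2 RPKM in the MYCN KD samples. PRMT1 held 64.5% and 62.8% of this sum in the Ctrl samples against 56.6% and 58.7% in the MYCN KD samples. Its share was lower in both MYCN KD samples, with means of 63.6% ± 1.21 and 57.7% ± 1.46 (SD, n = 2) and p = 0.3333 by an exact two-sided permutation test, the smallest possible. The share of PRMT2 was 1.13% and 1.28% in the Ctrl samples against 3.79% and 3.37% in the MYCN KD samples. The share of PRMT5 was 12.5% in both Ctrl samples and 11.8% and 11.95% in MYCN KD, and the 5 type I enzymes together held 83.7% and 84.02% in the Ctrl samples against 84.5% and 84.1% in the MYCN KD samples. The type I share thus stayed between 83.7% and 84.5%. Most of it is PRMT1, and it was not taken without PRMT1, so it says little about the other type I genes. Since PRMT1 makes up most of the sum, its fall by itself pushes up the shares of the other genes. The share of PRMT5 did not rise even so. Those of PRMT3 (1.27% and 1.44% against 1.31% and 1.17%) and PRMT7 (3.73% and 3.46% against 3.67% and 3.98%) overlapped between conditions. The shares were therefore also taken without PRMT1. Of the sum without PRMT1, PRMT5 held 35.3% and 33.6% in the Ctrl samples against 27.3% and 28.9% in the MYCN KD samples. PRMT2 held 3.17% and 3.44% against 8.73% and 8.15%. PRMT3 held 3.58% and 3.88% against 3.03% and 2.83%. PRMT5 and PRMT3 were thus lower and PRMT2 higher in both MYCN KD samples on this base, with no test. CARM1 (27.1% and 25.997% against 25.4% and 26.8%) and PRMT6 (20.4% and 23.8% against 27.1% and 23.6%) overlapped between conditions. PRMT7 did so too (10.5% and 9.30% against 8.46% and 9.63%).

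**Figure D3:**
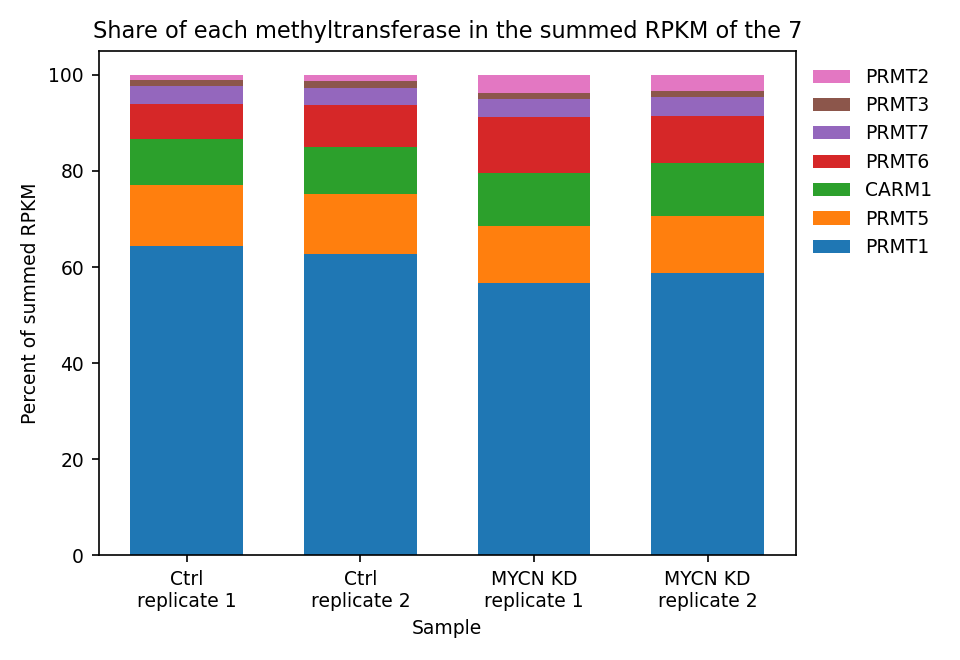
Share of each methyltransferase gene in the summed RPKM of the 7, in percent, for each of the 4 samples. PRMT1, the lowest segment, holds 62.8% or more in the Ctrl samples and 58.7% or less in the MYCN KD samples.

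Of the other arginine methyltransferase genes, PRMT8, which is known mainly from brain, was listed at 0 in every sample. PRMT9, the other symmetric enzyme, was at 2.03 and 2.21 RPKM in the Ctrl samples against 2.61 and 2.42 RPKM in the MYCN KD samples, with 0.17 as its log2 fold change, which was not past the threshold (limma adjusted p = 0.0808). NDUFAF7, which methylates a subunit of mitochondrial complex I, had a log2 fold change of -0.13 (limma adjusted p = 0.315). METTL23 rose from 11.5 and 12.2 RPKM to 15.7 and 14.8 RPKM (log2 fold change 0.34, limma adjusted p = 0.0187).

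The other genes of the pathway were taken from lists of partners, substrates and genes tied to the methyl donor cycle. The lists held 69 genes in all, of which 60 were tested. Of these 60, 35 were lower, 4 were higher and 21 did not pass the threshold, against 22.8% of all tested genes called lower and 25.3% called higher. Their median log2 fold change was -0.30. The lists were chosen for their ties to arginine methylation, and their counts are a description of the listed genes. The count of each list below is to be read beside the same 22.8% and 25.3%.

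All 3 adaptors that steer PRMT5 to its substrates fell. CLNS1A (pICln), which brings Sm proteins to the complex, went from 122.3 and 134.1 RPKM to 77.005 and 70.6 RPKM (log2 fold change -0.79). RIOK1, which brings nucleolin and competes with CLNS1A, went from 14.8 and 16.4 RPKM to 10.1 and 9.09 RPKM (-0.65), and COPRS, which ties the complex to histones, from 38.7 and 37.7 RPKM to 26.2 and 26.9 RPKM (-0.51). Their adjusted p from limma was 0.00691, 0.0116 and 0.00509.

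Of 5 genes listed with the S-adenosylmethionine cycle, not all of them enzymes of the cycle itself, 4 fell. MAT2B, the regulatory subunit of the enzyme that makes S-adenosylmethionine, went from 20.9 and 22.1 RPKM to 10.2 and 9.73 RPKM (log2 fold change -1.03, limma adjusted p = 0.00365). MAT2A, its catalytic subunit, fell less (log2 fold change -0.25, limma adjusted p = 0.0390). AHCY, which removes S-adenosylhomocysteine, the product that inhibits methyltransferases, went from 330.5 and 322.8 RPKM to 189.2 and 193.9 RPKM (-0.77, limma adjusted p = 0.00359). MTAP, which clears methylthioadenosine, an inhibitor of PRMT5, went from 8.77 and 9.14 RPKM to 4.31 and 4.15 RPKM (-0.93, limma adjusted p = 0.00361). AHCYL1 was not past the threshold (log2 fold change -0.28, limma adjusted p = 0.0642).

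Sm proteins form the ring of spliceosomal snRNPs, and PRMT5 methylates SNRPB, SNRPD1, SNRPD3 and LSM4. Of 8 genes, 7 fell, with log2 fold changes from -0.75 (SNRPF) to -0.31 (SNRPD2). Among the methylated ones, the log2 fold change was -0.48 for SNRPB, -0.52 for SNRPD1 and -0.38 for SNRPD3, with adjusted p of 0.0117, 0.00422 and 0.00550 from limma. LSM4 overlapped between conditions, at 180.9 and 169.8 RPKM in the Ctrl samples against 170.1 and 181.0 RPKM in the MYCN KD samples (log2 fold change 0.00, limma adjusted p = 0.987). The remaining ring genes SNRPE, SNRPF and SNRPG fell as well, by 0.39, 0.75 and 0.37 on the log2 scale.

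The SMN complex takes up methylated Sm proteins, and 6 of 8 of its partner genes fell. GEMIN5, which reads snRNAs, had 16.7 and 17.5 RPKM in the Ctrl samples against 6.97 and 6.71 RPKM in the MYCN KD samples (log2 fold change -1.21, limma adjusted p = 0.00359), the largest fall of all listed pathway genes. GEMIN4 (-1.0), GEMIN6 (-0.84), STRAP (-0.40), GEMIN2 (-0.30) and GEMIN7 (-0.29) also fell. DDX20 overlapped between conditions (log2 fold change -0.07, limma adjusted p = 0.654) and GEMIN8 had a log2 fold change of 0.05 (not past the threshold, limma adjusted p = 0.374). SMN1 and SMN2, which are near-identical copies of a gene that cells need, were both listed at 0 in every sample, so their level is not known from these values. The Tudor proteins that bind methylarginine did not pass the threshold, with log2 fold changes of -0.26 for SMNDC1, -0.35 for TDRD3 and -0.18 for SND1.

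Of 18 arginine-glycine-rich and related substrates, 12 fell, none rose, and 6 did not pass the threshold. The 5 largest changes past the threshold were those of NCL (nucleolin, log2 fold change -1.10), GAR1 (-0.92) and FBL (fibrillarin, -0.84), all nucleolar, of MRE11, listed as MRE11A, a nuclease of double-strand break repair (-0.77), and of G3BP1, a stress granule protein (-0.60). NCL went from 603.8 and 654.7 RPKM to 304.6 and 282.4 RPKM, and FBL from 436.99 and 423.0 RPKM to 236.4 and 244.5 RPKM. RPS2, the substrate of PRMT3, had a smaller log2 fold change of -0.23 (limma adjusted p = 0.0347), and reads of RPS2 and HNRNPA1 can be shared with their pseudogenes. KHDRBS1 (0.16) and TP53BP1 (0.18) had positive log2 fold changes that did not pass the threshold.

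Of 8 genes of CARM1 substrates and coactivators, 3 were lower, 3 were higher and 2 were not past the threshold. Of all tested genes 22.8% were called lower and 25.3% higher, so these counts are not read as a trait of the list. PABPC1, the poly(A) binding protein (log2 fold change -0.79), SMARCC1, a BAF subunit (-0.70), and the acetyltransferase CREBBP (-0.30) fell. The nuclear receptor coactivators NCOA2 (0.56) and NCOA1 (0.49) and the Mediator subunit MED12 (0.21) rose. NCOA2 went from 3.89 and 4.26 RPKM to 6.74 and 6.18 RPKM, and NCOA1 from 3.53 and 4.14 RPKM to 6.23 and 5.33 RPKM. For NCOA3 (0.31) and EP300 (0.12) the adjusted p was 0.0930 and 0.0909 from limma. Over all lists 4 genes were called higher, and this number was 2 with no filter on low values and 2 with the samples blocked by replicate number.

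**Figure D4:**
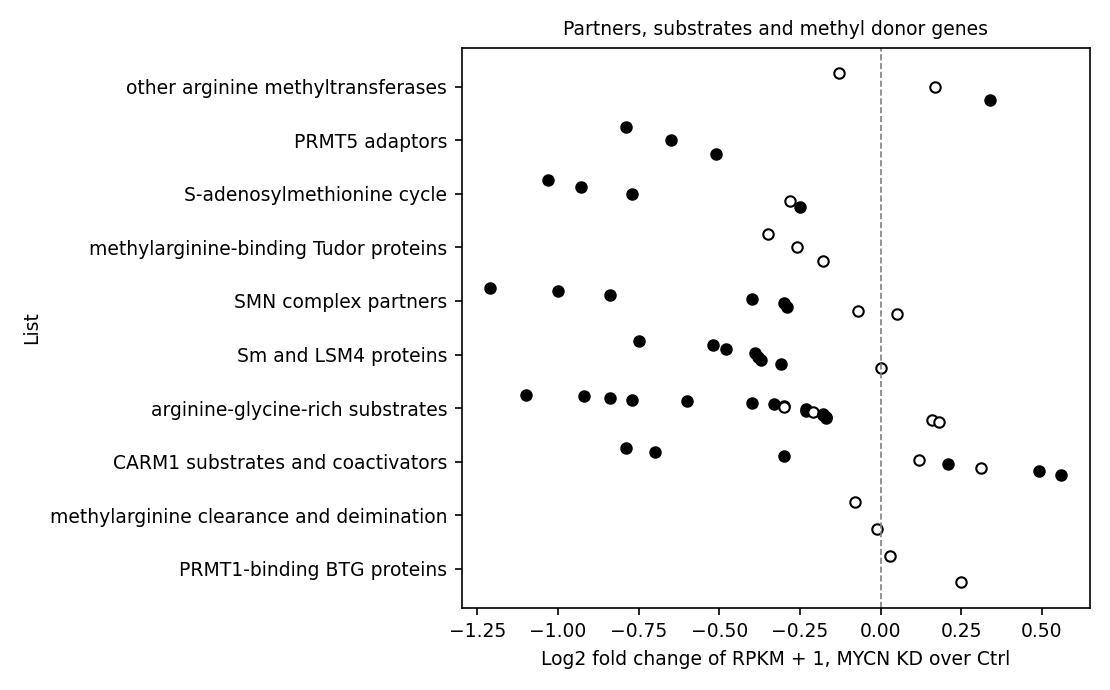
Log2 fold change of RPKM + 1 in MYCN KD over Ctrl for the 60 tested pathway genes, by list, with each point a gene, filled where the adjusted p from limma was under 0.05. The PRMT5 adaptors lie between -0.79 and -0.51, and the CARM1 substrates and coactivators run from -0.79 to 0.56.

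The genes whose values over the 4 samples were most like those of each member were found by the Euclidean distance in log2(RPKM + 1) less the mean of the gene. With 4 samples many genes lie near each member (from 14 genes within 0.05 of PRMT2 to 145 of PRMT6), so the names are a description. Nearest to PRMT1 were TRMT1, a tRNA methyltransferase (distance 0.0121), and TYSND1 (0.0169), and nearest to PRMT5 were HES1, a Notch target (0.00848), and NDUFAF4 (0.0118). Nearest to WDR77 were COA4 (0.00534) and KCTD15 (0.00587), to PRMT3 LINC01315 (0.00596) and SNRPA1, a snRNP protein (0.00762), and to CARM1 PYCRL (0.00443) and FLAD1 (0.00544). Nearest to PRMT7 were FARSA (0.00223) and CENPF (0.00609), and to PRMT6 HNRNPU (0.00267) and TAX1BP1 (0.00652). Nearest to PRMT2 was DENND6B (0.0111), and the next was a row whose symbol had been turned into a date and is not named.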

How the data were processed

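RNA-seq values of 4 BE(2)C samples were used, with groups taken from the sample titles. By the study's methods and the submitters' processing notes, HISAT2 2.1.0 aligned the reads to hg19, featureCounts assigned them to RefSeq genes, and DESeq2 and RUVSeq served for modelling and for unwanted variation. The deposited values are RPKM that the authors made from the adjusted counts, 1 file per sample. The RUVSeq variant and number of factors are not given in the sources used here. Counts before this step were not analysed, so depth before adjustment is unknown.

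Whole adjusted reads were recovered from the RPKM values: totals from small RNA genes of known length (92.92% to 93.42% whole within 0.005 reads), and reads of each gene from the smallest length that made all 4 samples whole within 0.001 reads, so a common factor could be missing. Log2(RPKM + 1) was fitted with limma 3.58.1 in R 4.3.3 (lmFit, eBayes with a trend), with no block term, for the 11411 genes whose RPKM averaged 1 or more, and p-values were adjusted over all of them by Benjamini-Hochberg. Fold changes on this scale understate the change of low genes. The fit and the recovery were tested on simulated data. The simulated samples were independent of each other, unlike the replicates here, so the error rates of the fit on these data are not known from them. Named genes were the members, MYCN, markers, lists of up to 8 genes, the 5 largest changes past the threshold of longer lists, and the 2 nearest genes of each member. KHDRBS1, TP53BP1, RPS2 and HNRNPA1 were otherwise named for their role or as exceptions, after their values were seen. The adrenergic list had further genes that are not reported here and are not in its sum. Members and lists were chosen with earlier results of these data known. Alternatives were another pseudocount, other filters, scalings and variance models, the replicate block, samples left out and limma voom. Gene positions are from GENCODE 44 lifted to GRCh37, and promoter letters from RefSeq on GRCh38.p14, which held all 8 members. Python 3.11.15 was used.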

Additional observations from a re-analysis of the deposited data

How the results depend on the processing

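The direction of each of the 8 members and of MYCN was kept under every alternative run. These were a pseudocount of 0.1, no filter or a minimum mean RPKM of 5, quantile normalization and rescaling to the same total. Also run were eBayes without a trend, the replicate block, limma voom on recovered reads and each sample left out. Most of these could not turn a direction. The filters, the trend and the replicate block leave the log2 fold change as it was. For each of these genes the conditions did not overlap, so the pseudocount, limma voom and samples left out keep its sign. Only quantile normalization and rescaling to the same total could have changed it. In the fits of all samples the side of the threshold was kept too, except for PRMT7 with no filter on low values (-0.48, limma adjusted p = 0.0706). The fit with no filter was over 19908 genes in place of 11411. The members counted as lower were 6 and as higher 1 in each of these fits of all samples, and 5 and 1 in the one with no filter. Log2 fold changes with a sample left out ran from -0.82 to -0.66 for PRMT1, from -0.72 to -0.60 for PRMT5, from -0.59 to -0.37 for PRMT7, from -0.26 to -0.09 for PRMT6 and from 0.86 to 0.92 for PRMT2. In these fits the lone sample of a condition is assumed to vary like the others, so only log2 fold changes are given for them. The pathway genes called higher were 4, and 2 with no filter on low values and 2 with the replicate block. The genes called higher were 2890, and 1868 where RPKM had to average 5 or more and fewer genes were tested. The cause of the other changes was not tested.

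The numbers of the replicates could pair the samples, but nothing in the labels ties them, and the deviations of same-numbered samples from their group means had a correlation of -0.985. With the replicate block, 1851 genes were lower and 2077 higher, and 6 members were lower (PRMT7 at -0.48, limma adjusted p = 0.00893) and 1 higher. With the crossed pairing, chosen after seeing the data, 5262 genes were lower and 5910 higher, and 7 members were lower and 1 higher.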

Other observations

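Genes that clear or change methylarginine, and the BTG proteins that bind PRMT1, were listed as well. Of 8 genes of clearance and deimination only DDAH1, which breaks down free asymmetric dimethylarginine, and JMJD6 were tested. DDAH1 was at 8.40 and 10.3 RPKM in the Ctrl samples against 9.66 and 7.90 RPKM in the MYCN KD samples, and JMJD6 at 13.1 and 12.1 RPKM in the Ctrl samples against 12.1 and 13.0 RPKM in the MYCN KD samples. The values of both overlapped between conditions, with log2 fold changes of -0.08 and -0.01. DDAH2 was at 0.0723 to 0.308 RPKM, from 35 to 144 reads over a recovered length of 15134 bases. Its low RPKM rests on that length, so its level is uncertain. PADI3, PADI4 and PADI6 were listed at 0 in every sample, and PADI1 and PADI2 were at or near 0. BTG1 was at 8.25 and 8.37 RPKM in the Ctrl samples against 8.58 and 8.47 RPKM in the MYCN KD samples, and BTG2 was not past the threshold (log2 fold change 0.25, limma adjusted p = 0.0602).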
